A study of Drosophila melanogaster with 4 samples.

Results

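The genes described are those on 2L, the left arm of chromosome 2 of Drosophila melanogaster, that the deposited tables list under a CG number alone. Such numbers were given to genes predicted from the genome sequence, and many have since received a name. Members were the chr2L genes of the autosomal table whose name is CG followed by digits, with transcript models averaged per gene and a mean of at least 10 CPM (counts scaled to a common library total) over the 4 groups. This left 646 of 1469 such genes, out of 6308 genes of 14162 in all that reached the same mean.

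The groups were trisomy 2L females, trisomy 2L males, normal females and normal males, all larvae of the third instar, from stocks kept at 25 degrees per the labels. In trisomic larvae 2L was present in 3 copies, and in normal larvae in 2. The series' design text calls the normal diploids Cantons. The sources used here do not give the strain that carried the trisomy, the way it was built or the age within the instar, so these cannot be told apart from the karyotype. The labels name 4 biological replicates per group, which the authors had averaged before deposit. Every gene thus has a single CPM for each group, no replicate error can be given, and no difference below has a test.

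An extra copy of a chromosome arm adds template for every gene on it. Transcript levels in aneuploid flies are known to follow the copy number for some genes, to stay near the diploid level for others (dosage compensation), and to change on other chromosomes too. Genes of 2L with 3 copies would have 1.5-fold the diploid level if each copy were used equally.

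Changes are log2 of CPM + 1 in trisomic over normal larvae within a sex. Values of this kind are parts of a fixed sum, and the genes of the other large autosomal arms, 2R, 3L and 3R, had a median log2 change of -0.20 in females and -0.31 in males. A relative change is the log2 change less this median, and a plain log2 change is on the deposited scale. CPM cannot tell a shift of scale from a true decrease on those arms, and such a decrease would raise every relative change. The members carried 7.68% of the summed gene CPM in trisomic females against 7.02% in normal females, and 7.97% in trisomic males against 7.51% in normal males. In all, 643 members were matched to a RefSeq gene, every one of them on 2L; 642 were protein-coding and 218 had a name there.

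The first comparison asked how far genes in 3 copies followed their copy number. In both sexes most members had a log2 change above the median of the diploid arms, but the members' median relative change lay below 1.5-fold. On the deposited scale the members' median log2 change was 0.14 in females and -0.0035 in males. The median relative change was 0.33 in females, which is 1.26-fold, and 0.31 in males, which is 1.24-fold. The quartiles lay at 0.09 and 0.74 in females and at -0.07 and 0.90 in males. Above the median of the diploid arms lay 531 members in females (82.2%, against 58.3% of all genes) and 463 in males (71.7%, against 56.7%).

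At least 1.5-fold higher, relative to the diploid arms, were 205 members in trisomic females, or 31.7%, against 22.3% of all genes. In trisomic males 224 members reached this, or 34.7%, against 27.6% of all genes. At least 1.5-fold lower were 19 members in females (2.94%, against 7.51% of all genes) and 82 members in males (12.7%, against 14.5%). On the deposited scale these counts became 155 higher (against 15.3% of all genes) and 31 lower (18.3%) in females, and 163 higher (17%) and 124 lower (29.5%) in males.

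A gene was counted as nearer to 1.5-fold than to no change when its relative change was at least 0.29, the midpoint on the log2 scale. In females 351 members (54.3%, against 38.9% of all genes) lay there, 39.2% lay near no change (36.6% of all genes) and 6.50% lay nearer to 0.667-fold (24.5%). In males 333 members (51.5%, against 41.6%) lay nearer to 1.5-fold, 29.4% near no change (29.8%) and 19.0% nearer to 0.667-fold (28.6%). The counts in females include 70 male-high members, genes described further on whose median was 0.301 CPM in trisomic against 0.201 CPM in normal females. A gene that low has a log2 change near 0, and taking off the arm median of -0.20 moves it towards 1.5-fold. For the same reason, 96 of the 531 members above the arm median in females were male-high. Without the male-high genes, 281 of 546 members (51.5%) lay nearer to 1.5-fold in females and 59.2% did in males. Above the arm median then lay 79.7% in females and 82.2% in males. Both sexes placed 273 members (42.3%) nearer to 1.5-fold and 151 members (23.4%) near no change. The shares of all genes in these joint classes were not computed, so the counts only describe the members.

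**Figure D1:**
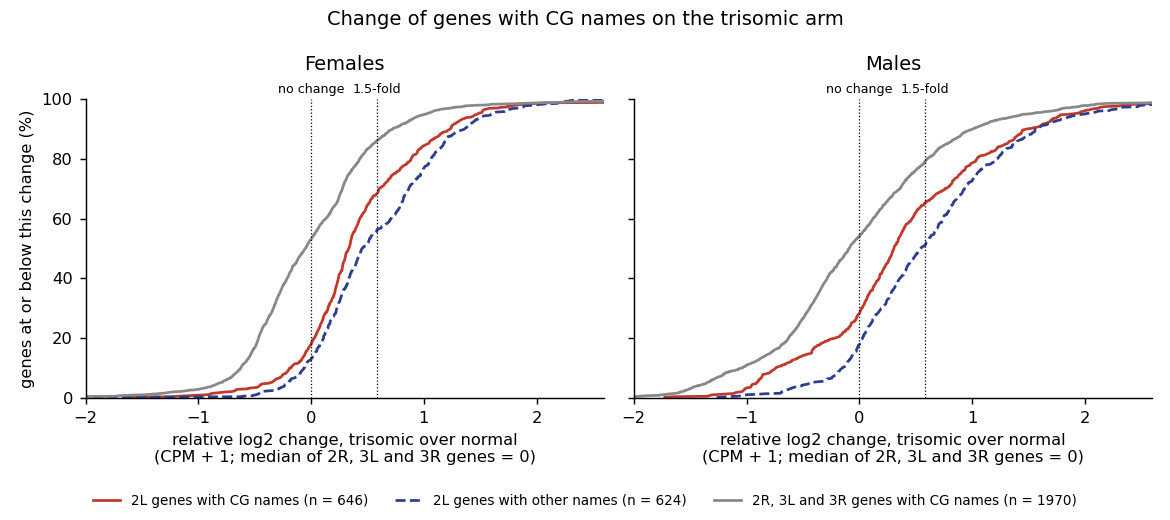
Cumulative share of genes (%) against the relative log2 change in trisomic over normal larvae, in females (left) and males (right), for 2L genes with CG names, 2L genes with other names and CG genes of 2R, 3L and 3R; the axis ends at -2 and 2.6. The curve of the 646 members lies between the other curves for most of its course, and in males 82 members (12.7%, against 14.5% of all genes) are at least 1.5-fold lower.

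The members were next set beside the 624 other 2L genes, which have the same copy number but had a name in the tables, and beside the 1970 CG genes of 2R, 3L and 3R, which have the same kind of name and no extra copy. The 2L genes with other names had a median relative change of 0.45 in females (1.37-fold) and 0.55 in males (1.46-fold). For the members minus these genes, the difference of medians was -0.12 in females and -0.24 in males. The CG genes of the diploid arms had medians of -0.05 and -0.09, so that the members stood above them by 0.39 (1.31-fold) in females and 0.40 (1.32-fold) in males. Named 2L genes stood above the named genes of those arms by 0.41 and 0.47. Most of the distance between members and named 2L genes was therefore also present on the arms with no extra copy. There the CG genes had the medians given above, against 0.04 in females and 0.08 in males for the named genes.

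Level was compared because CPM, which is not scaled by gene length, sets how well a gene is measured. Within each class of mean CPM the members were set against the 2R, 3L and 3R genes of the same class. At 10 to 20 CPM the median excess of 250 members was 0.25 in females and 0.24 in males. At 20 to 50 CPM it was 0.39 and 0.37 over 245 members. At 50 to 100 CPM it was 0.43 and 0.34 over 85 members, and at 100 CPM or more it was 0.37 and 0.27 over 66 members. None of these medians reached the log2 of 1.5, which is 0.58. The named 2L genes reached it in females only at 100 CPM or more, with 0.60 over 112 genes that had 0.44 in males. In males they reached it only at 50 to 100 CPM, with 0.64. The members of at least 100 CPM were the most spread out, with quartiles at -0.04 and 1.10 in females and -0.21 and 1.27 in males.

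The pseudocount lowers these medians where a gene is near 0 in 1 sex. Without it the median excess at 10 to 20 CPM was 0.41 in females over all 250 members, and 0.22 over the 187 members that were not much higher in males. At 50 to 100 CPM it was 0.44 in females and 0.35 in males without the pseudocount, and at 100 CPM or more 0.37 and 0.27.

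**Figure D2:**
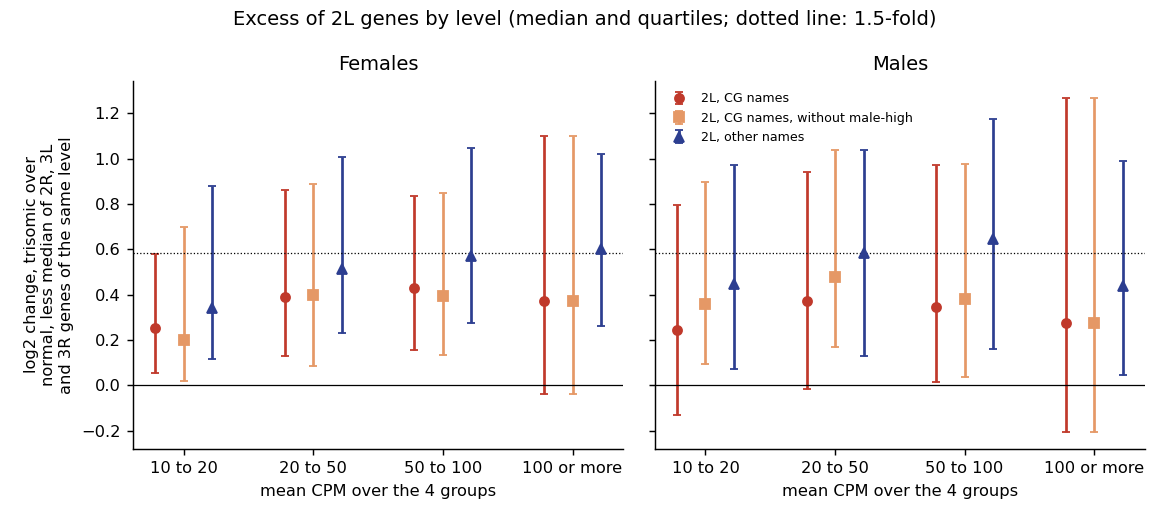
Median (points) and quartiles (bars) of the log2 change in trisomic over normal larvae, set against the median of diploid-arm genes of the same level, in 4 classes of mean CPM, for all members, members that are not male-high, and named 2L genes. The medians of the members lie between 0 and the dotted 1.5-fold line in every class, and those of the named 2L genes lie above them.

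The 5 members with the highest CPM were not higher in trisomic females on the deposited scale. Of the 66 members of at least 100 CPM, however, 29 (43.9%) were at least 1.5-fold higher in females and 28 (42.4%) in males. These counts were taken against the median of diploid-arm genes of the same level. Among the CG genes of 2R, 3L and 3R of that level, 26.6% and 31.25% were as much higher. CG34166 had 2199 CPM in trisomic females against 2221 CPM in normal females, and 1819 CPM in trisomic males against 1591 CPM in normal males. CG6770 had 1535 against 2388 CPM in females and 1298 against 2081 CPM in males. CG8997 had 1388 against 2488 CPM in females and 1268 against 1987 CPM in males. CG34166 had log2 changes of -0.01 in females and 0.19 in males, which are relative changes of 0.18 and 0.50, and CG6770 and CG8997 were lower in trisomic larvae of both sexes.

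CG7916 had 811 CPM in trisomic females against 1983 CPM in normal females, and 785 CPM in trisomic males against 1477 CPM in normal males. CG42502 and CG10570 carry identical values, 540.1 CPM in trisomic against 1152 CPM in normal females and 309 CPM in trisomic against 1270.5 CPM in normal males. In all, 10 members form 5 pairs of identical values, among them CG17325 with CG42305, so each such pair is 1 measurement. Summed over all members on the deposited scale, CPM in trisomic females were 1.03 times those in normal females, and in males 0.994 times. For the named 2L genes the ratios were 1.35 and 1.402. For all 2R, 3L and 3R genes they were 0.835 and 0.850, and for the CG genes of those arms 0.824 and 0.822, so the members' ratios stood above those of the diploid arms. The 10 members with the highest CPM held 25.1% of the members' sum in trisomic females against 37.8% in normal females, and 22.4% in trisomic males against 30.3% in normal males.

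Of the 82 members at least 1.5-fold lower in males, 64 were genes with RNA mainly in males. A member was called male-high when its CPM + 1 was at least 2-fold higher in males than in females in both karyotypes. There were 100 such members (15.5%), against 7.61% of all genes, 5.61% of the named 2L genes and 11.2% of the CG genes of 2R, 3L and 3R. The opposite, at least 2-fold higher in females in both karyotypes, held for 1 member, against 0.0634% of all genes. The male-high members passed the minimum of 10 CPM mainly through males: 83 of them lay under 1 CPM in trisomic and in normal females. Of the 100, 84 still carry a CG number in RefSeq.

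In males, 90 of the 100 male-high members were lower in trisomic larvae. Their median log2 change in males was -1.05, and the median relative change was -0.74 (0.598-fold), with 7 members at least 1.5-fold higher. CG31948 had 56.2 CPM in trisomic males against 176 CPM in normal males. CG2955 had 64.3 against 156 CPM and CG31740 had 57.7 against 149 CPM in males. These 3 genes lay under 1 CPM in females of both karyotypes. At such levels the female changes of the group, with a median log2 change of 0.15, cannot be read as differences of expression.

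The male-high CG genes of 2R, 3L and 3R were lower still. Over 221 of them the median log2 change in males was -1.52, so the male-high members of 2L stood above them by 0.47, or 1.38-fold. In females, where most of these genes were too low to be read, the distance was 0.08. Both classes had passed the minimum mainly through males. For genes that were not male-high the corresponding distance was 0.44, or 1.36-fold, in females and 0.37, or 1.30-fold, in males.

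Markers of several tissues also differed between trisomic and normal larvae. All 3 testis markers were lower in trisomic males: dj, Mst84Db and Mst87F summed to 59.8 CPM in trisomic males against 226 CPM in normal males, and to 4.31 CPM in trisomic against 2.82 CPM in normal females. The 3 salivary gland glue genes summed to 2493 against 8681 CPM in females and 1805 against 8248 CPM in males, lower in trisomic larvae for 3 of 3 genes. The 4 midgut enzyme genes summed to 4255 against 1707 CPM in females and 4817 against 1058 CPM in males, with 4 of 4 higher. The 4 muscle genes summed to 3551 against 2345 CPM in females and 4356 against 1760.3 CPM in males, with 4 of 4 higher. The 3 haemocyte genes summed to 494 against 162 CPM in females and 419.6 against 128 CPM in males, with 3 of 3 higher. The 3 fat body genes summed to 50306 against 46477 CPM in females and 38183 against 35299.9 CPM in males, with Lsp1beta higher and Lsp2 lower in both sexes. Fbp1, the third, was higher in trisomic females (15894 against 13063.5 CPM) and lower in trisomic males (4839 against 6454 CPM). Of the 20 markers, 6 lie on 2L themselves and carry the extra copy, namely Jon25Bi, Jon25Bii and Jon25Biii of the midgut, Mhc of muscle, vkg of haemocytes and Lsp1beta of the fat body. The midgut, muscle and haemocyte markers on other chromosome arms, Amy-p, up, Mlc2, wupA, Hml and Pxn, were also higher in trisomic larvae of both sexes, Mlc2 and wupA only by a log2 of 0.04 and 0.07 in females. No marker was listed at 0. Their part in the changes of the members was not tested, and in whole larvae fewer cells of a type and less RNA per cell cannot be told apart.

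Without the 100 male-high genes, the sexes had similar counts of lower members, while their medians lay further apart. The median relative change of the remaining 546 members was 0.32 in females and 0.39 in males, against 0.33 and 0.31 over all 646. At least 1.5-fold lower were 17 members in females and 18 in males, against 19 and 82 of all members. Across these 546 genes the female and male log2 changes had a Pearson r of 0.89, and across all 646 it was 0.79. The genes left out include 83 under 1 CPM in all females, with a female change near 0, so the higher r does not measure a closer response. Genes are not independent replicates, and all values share the authors' scaling. At least 1.5-fold higher in both sexes were 183 members (28.3%), against 19.5% of all genes. In both sexes 12 members were at least 1.5-fold lower (1.86%), against 4.85% of all genes, and 1 member, CG17470, was past 1.5-fold in opposite directions, against 0.174% of all genes.

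**Figure D3:**
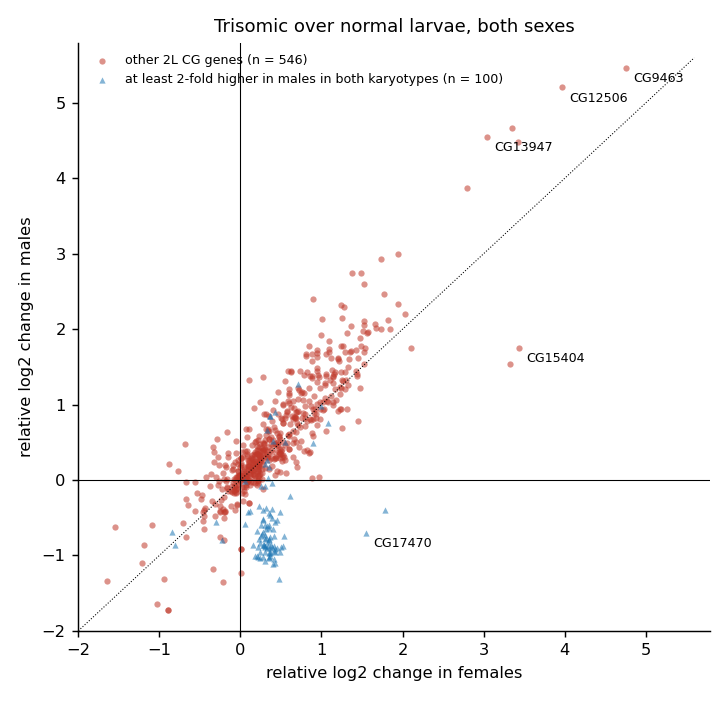
Relative log2 change in males against that in females for the 646 members, with the 100 male-high members as triangles. Most points lie along the dotted line of equal change, while the male-high members form a group below 0 in males and at small positive values in females, where 83 of them have under 1 CPM.

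Most of the largest increases were far above the copy number and lay in small groups of neighbouring genes. Lysosomal alpha-mannosidases, which trim mannose from glycoproteins during their breakdown, came first. CG9463, now LManIII, had 151 CPM in trisomic females against 5.44 CPM in normal females, and 133 CPM in trisomic males against 2.77 CPM in normal males. Its log2 changes were 4.56 and 5.15, the highest of all members in both sexes. CG9466 (LManV) had 502 against 55.7 CPM in females and 446 against 20.9 CPM in males, and CG9468 (LManVI) 546 against 89.5 CPM and 447 against 37.1 CPM.

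CG9465 (LManIV), a related gene, lay under the minimum with 13.4 against 0.587 CPM in females and 13.4 against 0.298 CPM in males. The other mannosidases on 2L were closer to the copy number. CG5322 (LManI) had 57.8 against 40.6 CPM in females and 54.5 against 39.6 CPM in males. CG6206 (LManII) had 529 against 275 CPM in females and 473 against 226 CPM in males. Near-identical copies can share reads, so the values within the cluster are uncertain one by one.

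A second group was CG12506, CG13946 and CG13947, which are neighbours on 2L and are not named in the reference. CG13947 had 488 CPM in trisomic females against 67.3 CPM in normal females and 602 CPM in trisomic males against 30.9 CPM in normal males. CG12506 had 76.3 against 4.67 CPM in females and 92.1 against 2.12 CPM in males. CG13946 had 50.9 against 4.53 CPM in females and 57.2 against 2.22 CPM in males. The male change of CG13947 exceeded its female change by 1.40, the widest gap in this direction among the members, and in normal larvae all of these genes had less CPM in males than in females.

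Other neighbours that were at least 1.5-fold higher in both sexes, relative to the diploid arms, were CG3513, CG16713 and CG16712, the last now IM33, an immune-induced peptide gene. IM33 had 119.8 against 48.2 CPM in females and 129 against 23.04 CPM in males. CG17107, CG7299 and CG7296 formed another run, with CG7296 at 104 against 45.7 CPM in females and 147 against 26.4 CPM in males, and CG17107 at 35.2 against 21.3 CPM and 64.3 against 14.3 CPM. Of all 2L genes of at least 10 CPM, 37.6% in females and 41.7% in males were at least 1.5-fold higher, and 1.81% and 8.11% lower, and runs were not set against another arm. In all, 19 runs of at least 3 genes, consecutive among the 2L genes of at least 10 CPM, were higher in this way and held 2 or more members. No such run was lower in both sexes. The 83 male-high members under 1 CPM in all females could not readily join a lower run, as their female change is near 0. In males alone, consecutive members could be lower together, as CG31820, CG34168 and CG31819 with relative changes of -0.94, -1.01 and -0.89.

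The increase was larger in females for CG15404 and for CG31698, the second of which was picked after its values were seen. CG15404 had 71.3 CPM in trisomic females against 6.63 CPM in normal females, and 37.6 CPM in trisomic males against 13.2 CPM in normal males. CG31698 had 77.4 against 7.996 CPM in females and 39.3 against 16.2 CPM in males.

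**Figure D4:**
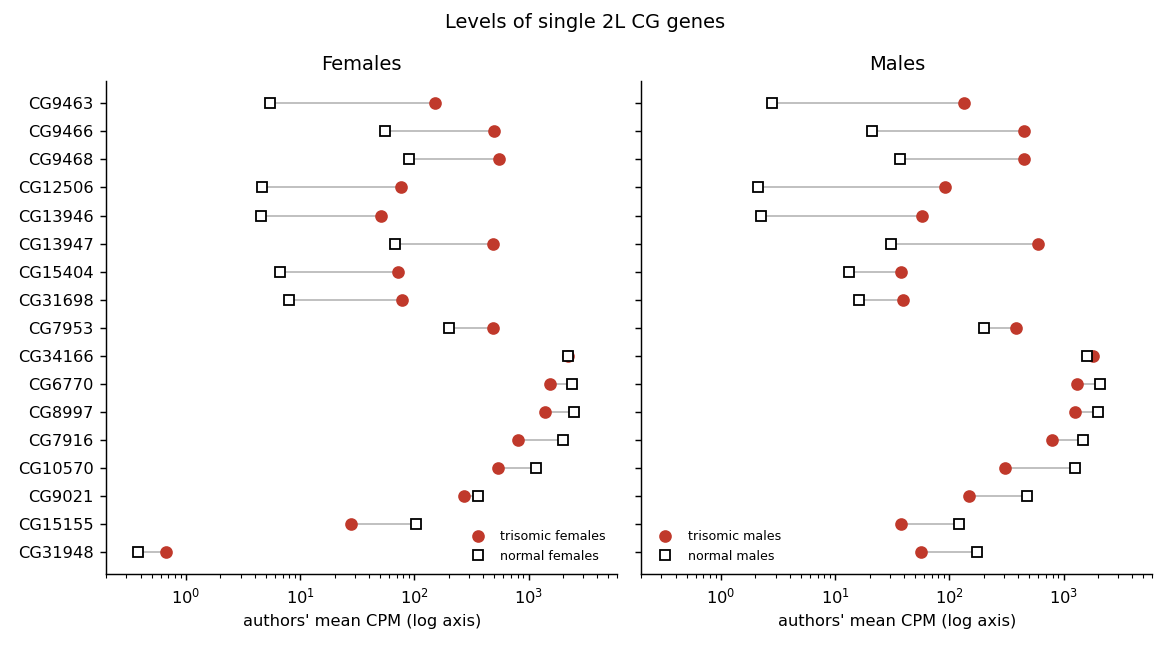
Authors' mean CPM of 17 single members on a log axis, with trisomic larvae as filled circles and normal larvae as open squares, in females (left) and males (right). CG9463 lies at 151 against 5.44 CPM in females and 133 against 2.77 CPM in males, while CG7916, CG8997 and CG6770 are lower in trisomic larvae of both sexes.

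Decreases were smaller than the largest increases. In females the lowest log2 changes were those of CG15155 (28.1 CPM in trisomic against 103 CPM in normal females, -1.84), CG17105 (-1.75), CG15406 (-1.42), CG9259 (-1.38) and CG7916 (-1.29). In males they were those of CG42502 and CG10570 (-2.04), CG42460 (35.4 CPM in trisomic against 139.8 CPM in normal males, -1.95), CG9021 (149 against 474 CPM, -1.66) and CG15155 (37.9 against 121 CPM, -1.65). CG9021 was much closer between karyotypes in females, with 270.2 CPM in trisomic against 359.7 CPM in normal larvae. Neighbouring members could go opposite ways: CG7953 had 490.2 against 202 CPM in females and 382 against 202 CPM in males, whereas CG7916, the member next to it, was lower in both sexes. CG17105 had 14.8 against 52.2 CPM in females and 22.4 against 43.7 CPM in males, next to CG17107, which was higher in both.

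CG15406 had 17.2 against 47.5 CPM in females and 15.1 against 41.6 CPM in males. CG9259 had 66.4 against 175 CPM in females and 63.6 against 145 CPM in males. For both genes the female and male changes differed by no more than a log2 of 0.21. CG11912 had 287 against 633 CPM in females and 181 against 559 CPM in males, lower in both sexes, while CG33128 had 796 against 474 CPM in females and 860.1 against 391 CPM in males, higher in both. These last genes were picked after their values were seen.

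Members with a present-day name were grouped by what their products do. These groups were made after values had been seen, so their counts are descriptions. They are to be read against all members, of which 82.2% exceeded the median of the diploid arms in females and 71.7% in males. Among the 202 members named now that are not male-high, the shares were 84.2% in females and 83.2% in males. All 4 listed splicing genes were at least 1.5-fold higher than the diploid arms in both sexes. Of all members 28.3% were so, and of all genes 19.5%. The list need not hold every splicing gene among the members, so it gives no result for splicing genes as a class. Sf3b2, a part of the complex that recognises the branch point, had 25.1 against 9.35 CPM in females and 30.8 against 10.7 CPM in males. Caper, another splicing factor, had 41.9 against 20.9 CPM in females and 45.4 against 20.3 CPM in males.

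Of 13 enzymes of carbon and lipid metabolism, 11 exceeded the median of the diploid arms in males, and in females 11 of the 11 that reached 1 CPM in either karyotype did so. Fum4 and Gpo3 lay under 1 CPM in all females. Over all 13 genes the median relative change was 0.42 in females and 0.85 in males. FASN1, the fatty acid synthase, had 507 against 169.7 CPM in females and 541 against 121 CPM in males. Mtpalpha, which oxidises long fatty acids in mitochondria, had 181 against 80.4 CPM in females and 174 against 65.4 CPM in males. The cytosolic malate dehydrogenase Mdh1 had 409 against 310.5 CPM in females and 383 against 205 CPM in males. Fum4, a fumarase gene with male-limited RNA, had 12.2 CPM in trisomic against 29.5 CPM in normal males and under 1 CPM in females.

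Of 12 genes for parts or assembly of the mitochondrial respiratory chain, 11 exceeded the median of the diploid arms in females and 12 in males. So did 82.2% and 71.7% of all members, and 84.2% and 83.2% of those named now that are not male-high. Over the 12 genes the median relative changes were 0.40 and 0.51. ND-51, a subunit of complex I, had 92.1 against 40.4 CPM in females and 105 against 30.9 CPM in males. COX4, a subunit of cytochrome c oxidase, had 163 against 108 CPM in females and 178 against 83.05 CPM in males. The other 5 complex I subunits were closer to level, as ND-15 with 41.5 against 44.3 CPM in females and 45.95 against 47.4 CPM in males. ND-51 thus stood apart from the other listed subunits of its complex in both sexes.

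All 13 genes of endosome and Golgi trafficking lay above the median of the diploid arms in both sexes, where most members lay, with a median relative change of 0.49 in each, and TBC1D23 was highest at 29.5 against 12.9 CPM in females and 39.2 against 16.6 CPM in males. All 6 genes of tRNA charging and mitochondrial translation did so too, with medians of 0.57 and 0.56, led by the seryl-tRNA synthetase SerRS (log2 change 1.32 and 1.66). Of 6 membrane carriers, MFS3 was highest (1.37 and 1.64) and SLC5A11 was lower in both sexes (-0.65 and -0.71). Slc25A46b was the lowest carrier in males, with 14.1 CPM in trisomic against 37.3 CPM in normal males (-1.34), and lay under 1 CPM in females.

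Over 8 glycosylation and membrane anchor genes the median relative change was 0.03 in females and 0.14 in males, and GCS2beta, the beta subunit of glucosidase II, stood apart with 60.8 against 23.7 CPM in females and 61.7 against 22.9 CPM in males. Over 8 genes of ubiquitin and the proteasome the medians were 0.29 and 0.27, close to those of all members. The proteasome subunit gene Prosbeta4 had 94.6 against 129 CPM in females and 83.03 against 138 CPM in males, and Sem1, another subunit, had 68.5 against 98.3 CPM and 58.3 against 101 CPM. CG1832, now Clamp, whose protein guides the dosage compensation complex to the male X, was picked for its role. It had 48.2 against 53.9 CPM in females and 54.4 against 67.2 CPM in males, a relative change of 0.04 in females and 0.01 in males.

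The order of members along the arm was taken from the reference annotation, and the 643 matched members were split into 10 windows of 64 or 65 genes. The excess was present along the whole arm in females, where window medians of the relative change ran from 0.26 in the window next to the centromere to 0.40 in the second window from the tip. In males they ran from -0.002 in the eighth window to 0.49 in the second. The eighth window held 22 of the male-high members, more than any other window, and without them its median was 0.30. Without male-high genes all male windows lay between 0.29 and 0.56.

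**Figure D5:**
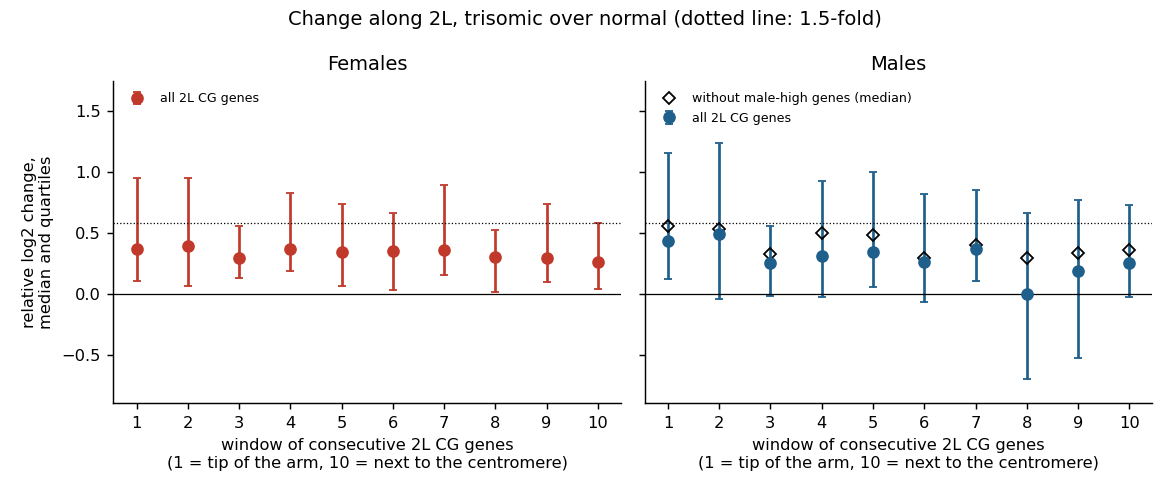
Median (points) and quartiles (bars) of the relative log2 change in 10 windows of consecutive 2L members, in females (left) and males (right), with the male medians without male-high genes as open diamonds. Every female median lies above 0 and below the dotted 1.5-fold line, and the male median is lowest in the eighth window, which holds 22 male-high members.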

How the data were processed

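Per the labels' protocols, TRIZOL served for RNA isolation and a TruSeq kit for the libraries. TopHat, HTSeq and the build dm3 are named in the submitters' processing notes; which annotation and strand setting went with them is not stated in any source at hand. The deposited values are CPM that the authors had averaged within groups, per the file headers, in 2 tables (19047 autosomal and 3691 X transcript models). Depth per library is unknown, so no interval was computed. A single value recurs in many models of a column (2.81 CPM in trisomic and 2.22 in normal females, 0.389 in trisomic and 0.845 in normal males), and differences near it cannot be read.

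Transcript models were averaged per gene, the mean of at least 10 CPM applied, and log2 of CPM with a pseudocount of 1 compared by medians and by counts past 1.5-fold. RefSeq Release 6 gave names, gene order and gene length, and an Ensembl annotation the exon numbers. Members, lists and alternatives were chosen with earlier results of these data known. Named genes were the 5 largest increases and decreases per sex, the 5 with the highest CPM, the 3 widest sex differences each way, the mannosidases, and members of groups by current name. Protein families by sequence, as planned, were not made. The computation of medians was checked on simulated data with known shifts. Work was done in Python (3.11.15) with pandas (2.3.3), numpy (2.4.6), matplotlib (3.10.9) and scipy (1.17.1).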

Additional observations from a re-analysis of the deposited data

Results flagged for a closer look

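The male-high members had a median relative change of -0.74 in males, the opposite sign to the 0.35 in females. The female value gives no direction of expression, since 83 of these 100 genes lay under 1 CPM in females of both karyotypes and their median log2 change before the arm median was taken off was 0.15. The difference between the sexes was not tested.

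CG17470 was the only one of the 646 members at least 1.5-fold away from the diploid arms in opposite directions, with a relative change of 1.55 in females and -0.70 in males, against 0.174% of all genes. It had 2.49 CPM in trisomic against 0.373 CPM in normal females and 31.1 CPM in trisomic against 63.6 CPM in normal males. Its female values lie below the value that recurs in each female column, and the difference was not tested. CG15286, the next in the gap between the sexes, had 2.61 against 0.201 CPM in females and 25.8 against 42.8 CPM in males.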

How the results depend on the processing

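No paired analysis was possible because each column is a mean over the replicates of a group; for the same reason no replicate could be left out. Of 136 values under other settings, 92 stayed within the bounds set for each result, 43 moved beyond them and 1 turned round. The median relative change in females was 0.38 with a pseudocount of 0.5 and 0.46 without one, and without one 58.8% of members lay nearer to 1.5-fold. Minimums applied to the diploid-arm genes too. With none the medians were 0.15 in females and 0.18 in males, with 337 and 397 genes higher, 94 and 214 lower, 38.1% and 40.5% nearer to 1.5-fold, and a distance to named 2L genes of -0.13 in males. With a minimum of 5 CPM the female median was 0.29, 49.9% of genes lay nearer to 1.5-fold in females and 133 were lower in males. With a minimum of 20 CPM the female median was 0.42 and the share 60.9%, and in males 149 genes were higher and 45 lower. On the deposited scale the medians were 0.14 in females and -0.0035 in males, the value that turned round, with 31 and 124 members lower and 36.2% and 34.2% nearer to 1.5-fold; that scale does not take off the arm medians. Relative to CG genes of the diploid arms the medians were 0.39 and 0.40 and the shares 60.4% and 58.2%. At 2-fold, 101 members in females and 139 in males were higher, 6 and 22 lower, and 35.6% and 38.1% lay nearer to 2-fold than to no change. Among genes that still have a CG number, 133 and 142 were higher, out of fewer genes. Settings added after seeing the data were the removal of male-high genes (males: median 0.39, 18 lower, share 59.2%), at least 10 CPM in each group (males: median 0.26, 149 higher, 20 lower, share 47.1%, with the diploid-arm genes filtered too; with their median unchanged, 0.35, 162, 17 and 57.0%), and 1 gene per set of identical values.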

Other observations

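The 218 members with a name in RefSeq had a median relative change of 0.36 in females and 0.37 in males. The 425 that still carry a CG number had 0.32 and 0.28, and held 84 of the 100 male-high genes. Without male-high genes the medians in males were 0.397 for members named now and 0.395 for those with a CG number, and in females 0.37 and 0.28.

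Of the male-high members, 22 of 100 had a single exon, against 65 of the 543 other members with known exons. The median gene length was 1760.5 bases in male-high members against 2450.0 in the others.

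Below the minimum lay 823 CG genes of 2L, 191 of them under 1 CPM. The members closest to it were CG10721 and CG4701, both with a mean of 10.1 CPM, and the genes just outside were CG31781 with 9.97 CPM and CG9523 with 9.91 CPM. CG4701 reached the minimum through males alone, with 14.05 CPM in trisomic and 26.03 CPM in normal males against 0.175 CPM in trisomic and 0.109 CPM in normal females.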
